A study of Mus musculus with 6 samples.

Results

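The RNA levels of 10 imprinted genes that have been tied to the quiescence of stem cells (Grb10, Ndn, Cdkn1c, Igf2r, Meg3, H19, Peg3, Plagl1, Gnas and Impact) were measured in hematopoietic stem cells (HSCs) of CD74-/- and WT mice. They were chosen by gene symbol, with no threshold on their values but with earlier results of these data known, with the row of highest mean taken for a symbol, and all 10 were found among the 19846 genes of the processed table. In CD74-/- cells Grb10, an adaptor that restrains insulin and IGF receptors, was at 60.2% of its mean in WT cells, and Ndn, a brake on proliferation, was at 57.0%. These were the only members whose libraries did not overlap between the genotypes, and neither passed the test over all genes. Cdkn1c, Igf2r, Meg3 and H19 also had lower means in CD74-/- cells, Gnas, Impact and Plagl1 had higher ones, and Peg3 took either direction with the way it was fitted, all within the spread of the libraries.

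CD74 is the invariant chain of MHC class II and a surface receptor for the cytokine MIF, and the study asked which genes differ in HSCs that lack it. Cells negative for CD34 within the Lin-, Sca-1+, c-Kit+ gate (CD34-/LSK cells, a bone marrow fraction enriched for HSCs) were sorted from 3 CD74-/- mice and from 3 WT mice. Both groups were C57BL/6 mice of 6 to 8 weeks and were untreated, and the CD74-/- mice lacked the gene in the germline and so in every tissue, the cells around the HSCs included. Each library was made from 1000 cells with the SMART-Seq v4 kit, a method for whole transcripts of few cells that loses the strand, and the labels were read as 1 mouse per library.

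An imprinted gene is transcribed mainly or only from the allele of 1 parent, because DNA methylation laid down in egg or sperm is kept through later cell divisions. Many imprinted genes set the pace of growth in the embryo, and in adult tissues several of them are expressed most strongly in resting stem cells. In mouse bone marrow, loss of Cdkn1c, or of the imprint that keeps Igf2 silent beside H19, is known to push HSCs out of quiescence. The maternal allele is the expressed one for Cdkn1c, Igf2r, Meg3 and H19 and, outside neurons, for Grb10. The paternal allele is expressed for Ndn, Peg3, Plagl1 and Impact, while Gnas is expressed from both alleles or from the maternal one by tissue. The counts joined both alleles of each gene, so that imprinting itself was not measured.

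The unit throughout is the normalized count, which is the number of reads in a gene divided by the size factor of its library. The libraries held between 14390534 and 16198678 reads in genes, and between 16383 and 17376 genes had at least 1 read. Cd74 itself had 46.0, 72.0 and 72.8 normalized counts in CD74-/- libraries, against 3287, 2459 and 3107 in WT libraries, which fits the labels. All 10 genes of an HSC marker list were read in every library, with Procr between 949 and 1316 normalized counts. Of these 10 genes, 8 had a negative log2 fold change (median -0.21), and 0 passed in either direction (limma). Reads of mature cell types were also present. The 10 neutrophil marker genes summed to between 31360 and 144764 normalized counts in CD74-/- libraries, against 157123 to 973968 in WT libraries, and 7 erythroid genes summed to between 1559 and 3954 in CD74-/- libraries, against 11646 to 38314 in WT libraries. The sums of 6 monocyte genes overlapped, with 8280 to 37812 in CD74-/- libraries and 28312 to 49321 in WT libraries, as did those of 7 B cell genes, with 1212 to 2980 in CD74-/- libraries and 2708 to 9435 in WT libraries. All genes of these 4 lists had a negative log2 fold change (median -2.66 in neutrophil genes, -4.55 in erythroid genes, -3.52 in monocyte genes and -5.11 in B cell genes). The limma test called 2 of the 7 erythroid genes lower, the hemoglobin genes Hba-a2 (log2 fold change -5.05, adjusted p = 0.00821) and Hbb-bs (log2 fold change -5.24, adjusted p = 0.0116), whose near-identical copies may share reads, and 0 of the other 3 lists. Without WT replicate 1 these adjusted p were 0.0609 and 0.106, and without WT replicate 2 they were 0.0959 and 0.105 (limma). DESeq2 called 5 erythroid, 2 neutrophil, 2 B cell and 0 monocyte genes. No neutrophil gene was at 0 in any library. The part of these cells in the values of the imprinted genes was not tested. Replicate 1 had the highest neutrophil sum in each genotype, and results that turn on it are given without it. In bulk RNA, fewer cells of a type and less RNA per cell cannot be told apart. The sort took cells without CD34 on their surface, yet Cd34 RNA was read in all 6 libraries. Of the 3 markers of the next progenitors, Cd34 and Flt3 were higher in all CD74-/- libraries than in any WT library and Cd48 overlapped, with log2 fold changes of 0.59, 0.42 and 0.86, and all missed the threshold (adjusted p = 0.588, 0.675 and 0.607, limma).

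Levels differed widely among the 10 genes. Per kilobase of exon, Cdkn1c averaged 220.8 normalized counts in CD74-/- cells and 326.2 in WT cells, and Impact averaged 236.5 in CD74-/- cells and 180.4 in WT cells. Grb10, Ndn and Gnas came next, with 97.7, 63.9 and 58.6 per kilobase in CD74-/- cells and 162.4, 112.0 and 44.5 in WT cells. In WT cells, Cdkn1c lay above 83.7% of the genes tested by this measure, Impact above 73.4% and Grb10 above 71.1%. Igf2r and Meg3 had 12.96 and 8.80 per kilobase in CD74-/- cells, and 21.0 and 13.5 in WT cells. H19, Peg3 and Plagl1 were at the bottom, with 2.49, 3.15 and 5.03 per kilobase in CD74-/- cells and 11.6, 2.85 and 0.725 in WT cells. In WT cells Plagl1 lay above only 0.646% of the genes tested. Those genes averaged 10 or more normalized counts over all libraries. Plagl1 averaged 5.67 in WT cells and passed only through its CD74-/- libraries, so that the filter itself favoured a low place in WT cells. Genes next to each other in this order had overlapping libraries, except that in CD74-/- cells Cdkn1c lay above Grb10 and Gnas above Igf2r, and that in WT cells Cdkn1c lay above Impact, Grb10 above Ndn, Ndn above Gnas and Gnas above Igf2r in every library. The lengths are those of all annotated exons, which overstates the length of genes with many rare exons such as Gnas. The annotated exon of Ndn begins upstream of its transcript start in RefSeq, given below. The length of Ndn may thus be overstated too, and its place in the order rests on that length.

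**Figure D1:**
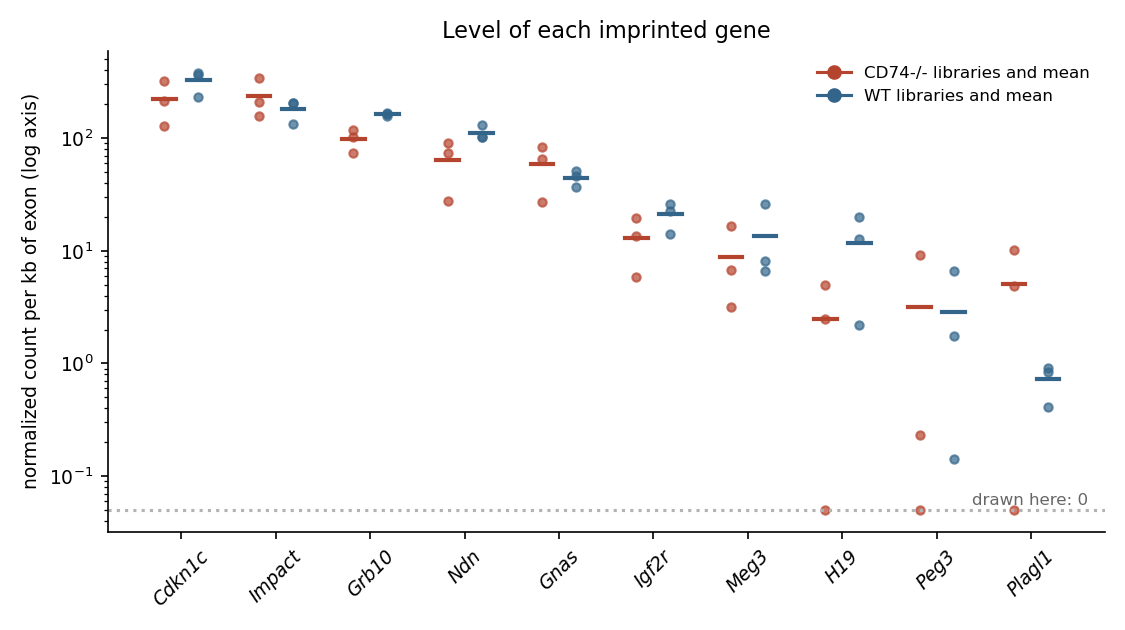
Normalized counts per kilobase of exon (vertical log axis) of the 10 imprinted genes, with CD74-/- libraries (red) left of WT libraries (blue) for each gene, 1 point per library and a bar at the mean of 3. Cdkn1c, Impact, Grb10, Ndn and Gnas lay well above H19, Peg3 and Plagl1, which had 0 reads in CD74-/- replicate 1.

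None of the 10 genes passed the test between the genotypes. In limma, run on log2 values with 1 added to each normalized count and on the 14892 genes averaging 10 or more, 0 of the 10 had an adjusted p under 0.05 (adjusted p between 0.541 and 0.887), beside 0.0873% of all genes tested (6 higher and 7 lower in CD74-/- cells). At an unadjusted p under 0.05, 1 of the 10 (Grb10) was lower in CD74-/- cells, beside 4.6% of all genes in that direction. In either direction it was still 1 of the 10, beside 1153 of the 14892 genes tested. The count of members was 3 without CD74-/- replicate 2 (Grb10, Ndn and Cdkn1c, lower). It was also 3 without CD74-/- replicate 3 (Grb10 and Ndn, lower, and Gnas, higher). The share of all genes in these runs was not counted. DESeq2 on the reads recovered from the table called 0 of the 10 (adjusted p between 0.248 and 0.994), beside 0.756% of all genes called. edgeR, in which Plagl1 fell under the filter, called 0 of 9, beside 0.083% called. Each had 1 member at an unadjusted p under 0.05, and the share of all genes at that cutoff was not counted. By overlap alone, every CD74-/- library was below every WT library for 2 of the 10 genes, beside 7.47% of all genes, and above every WT library for 0 of the 10, beside 5.35%. The log2 fold change was negative for 7 of the 10 genes with a median of -0.70, beside 52.3% of all genes and a median of -0.03. The 7 include H19, which averaged 6.13 in CD74-/- cells and passed the filter only through its WT libraries. With no filter the count was also 7. Peg3 is among the 7 too, and had a positive sign in edgeR and DESeq2. The 95% interval of the log2 fold change held 0 for 9 of the 10, all but Grb10.

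**Figure D2:**
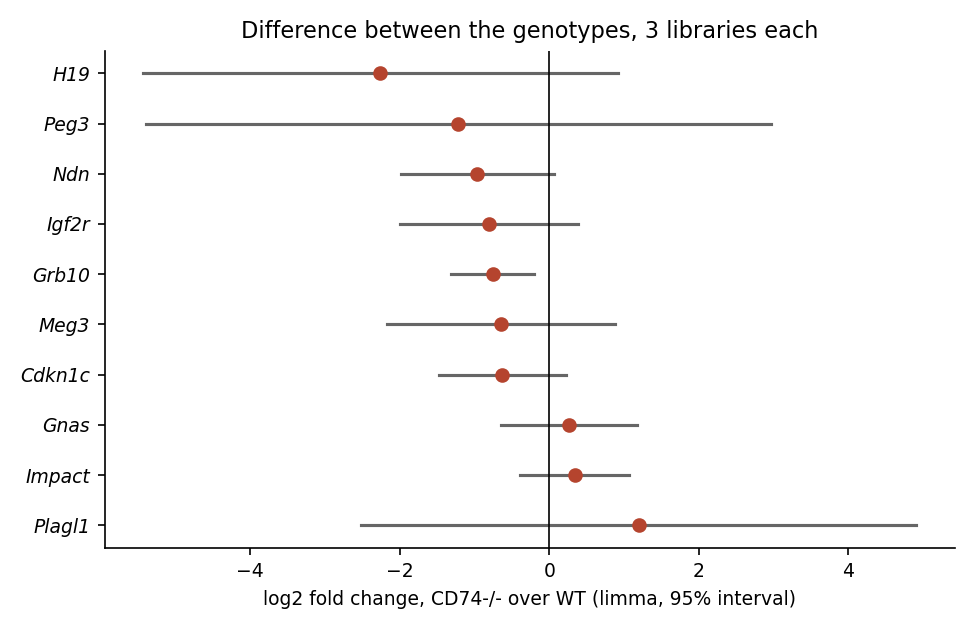
Log2 fold change of CD74-/- over WT (horizontal axis) for the 10 imprinted genes, as points with 95% intervals from limma, 3 libraries per genotype. The interval of Grb10 lay below 0, those of the other 9 genes held 0, and those of H19, Peg3 and Plagl1 were the widest.

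Grb10 (ENSMUSG00000020176) spans chr11:11930508-12038683 on the minus strand of GRCm38 and shares no exon base with another gene. It had 676, 1063 and 925 normalized counts in CD74-/- libraries, against 1496, 1414 and 1519 in WT libraries. The highest CD74-/- library thus lay below the lowest WT library, and the WT libraries were close to each other. The means were 888 ± 196 in CD74-/- cells and 1476 ± 55.2 in WT cells (SD, n = 3 each), with a log2 fold change of -0.76 (SE 0.251, 95% interval -1.32 to -0.20). The limma test gave p = 0.0127 and an adjusted p of 0.541, DESeq2 gave p = 0.00613 and an adjusted p of 0.248, and the two-sided exact permutation test gave p = 0.1, the smallest that 3 against 3 allows. Among the 5099 genes with a mean of 500 to 5000 normalized counts, the residual SD on the log2 scale had a lower quartile of 0.243 and a median of 0.344, and that of Grb10 was 0.239. Without CD74-/- replicate 1, which had the lowest value, the log2 fold change was -0.57 (adjusted p = 0.765, limma), and it ranged between -0.90 and -0.56 over all alternatives.

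Ndn (necdin, ENSMUSG00000033585), a MAGE family protein that binds E2F1 and p53 and restrains the cell cycle, is a gene of 1 exon at chr7:62346569-62350262 on the plus strand. Its normalized counts were 103, 334 and 272 in CD74-/- libraries, against 378, 487 and 376 in WT libraries. Each CD74-/- library was below each WT library, with replicate 1 the lowest by far. The means were 236 ± 119 and 414 ± 63.9 in CD74-/- and WT cells (SD, n = 3 each), and the log2 fold change was -0.96 (SE 0.458, 95% interval -1.98 to 0.058, limma p = 0.062, adjusted p = 0.668, exact permutation p = 0.1). Leaving out CD74-/- replicate 1 brought it to -0.45 (adjusted p = 0.897, limma), so that 1 library carried much of the difference. The promoters of these genes are shown because theirs were the only libraries of the 10 that did not overlap between genotypes. The sequences are from RefSeq (GRCm38.p6), run from 250 bases before the start of a transcript to 50 bases after it, are written 5′ to 3′ on the strand of the gene, and have each CpG, the site of DNA methylation, in capitals. Of the 10 genes, 7 have such windows, 12 in all, and are set against 32851 promoters of the same length.
Grb10, upstream start, chr11:12037371-12037670, minus strand: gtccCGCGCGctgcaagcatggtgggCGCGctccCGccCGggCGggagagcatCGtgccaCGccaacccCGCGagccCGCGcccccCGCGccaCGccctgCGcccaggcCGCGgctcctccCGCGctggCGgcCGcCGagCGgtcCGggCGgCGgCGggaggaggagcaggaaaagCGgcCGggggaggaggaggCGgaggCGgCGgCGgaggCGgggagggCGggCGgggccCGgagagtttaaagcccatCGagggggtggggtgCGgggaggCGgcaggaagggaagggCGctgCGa
Grb10, second start, chr11:12027922-12028221, minus strand: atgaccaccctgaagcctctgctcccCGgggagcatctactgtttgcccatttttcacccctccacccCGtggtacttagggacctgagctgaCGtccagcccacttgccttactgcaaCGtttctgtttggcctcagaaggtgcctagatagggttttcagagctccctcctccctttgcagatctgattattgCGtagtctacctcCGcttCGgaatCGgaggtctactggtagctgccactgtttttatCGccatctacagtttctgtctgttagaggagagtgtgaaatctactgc
Ndn, chr7:62348027-62348326, plus strand: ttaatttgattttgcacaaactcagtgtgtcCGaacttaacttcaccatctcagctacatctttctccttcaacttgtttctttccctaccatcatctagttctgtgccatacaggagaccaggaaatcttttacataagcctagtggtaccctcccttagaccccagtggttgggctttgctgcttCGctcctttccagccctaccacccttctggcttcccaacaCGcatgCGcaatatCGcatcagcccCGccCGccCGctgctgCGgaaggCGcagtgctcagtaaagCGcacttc
The upstream window of Grb10 held 45 CpGs, more than 98.1% of all promoters, whose median was 7, and the second window held 9. That of Ndn held 11, which exceeded 58.6% of all promoters, and most of them lay close to the start of the transcript. The Ndn window lies inside the annotated exon in which the reads of Ndn were counted. Among the other members, the windows of Gnas held between 16 and 40 CpGs, that of Igf2r 34, that of Plagl1 26, that of Peg3 13 and those of Meg3 13 and 1. The hexamer TGCCGC, which the imprint-keeping protein ZFP57 binds when it is methylated, was searched on both strands and occurred in 3 of the 12 windows (the upstream one of Grb10, that of Plagl1 and 1 of Meg3), beside 11.6% of all promoters. The hexamer itself holds a CpG, most of the 12 windows exceeded the median of 7 CpGs, and that share was not matched for CpGs. The windows of Gnas that start at chr2:174327499 and chr2:174327518 overlap, so that the 12 are not independent. Methylation was not measured in these cells.

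**Figure D3:**
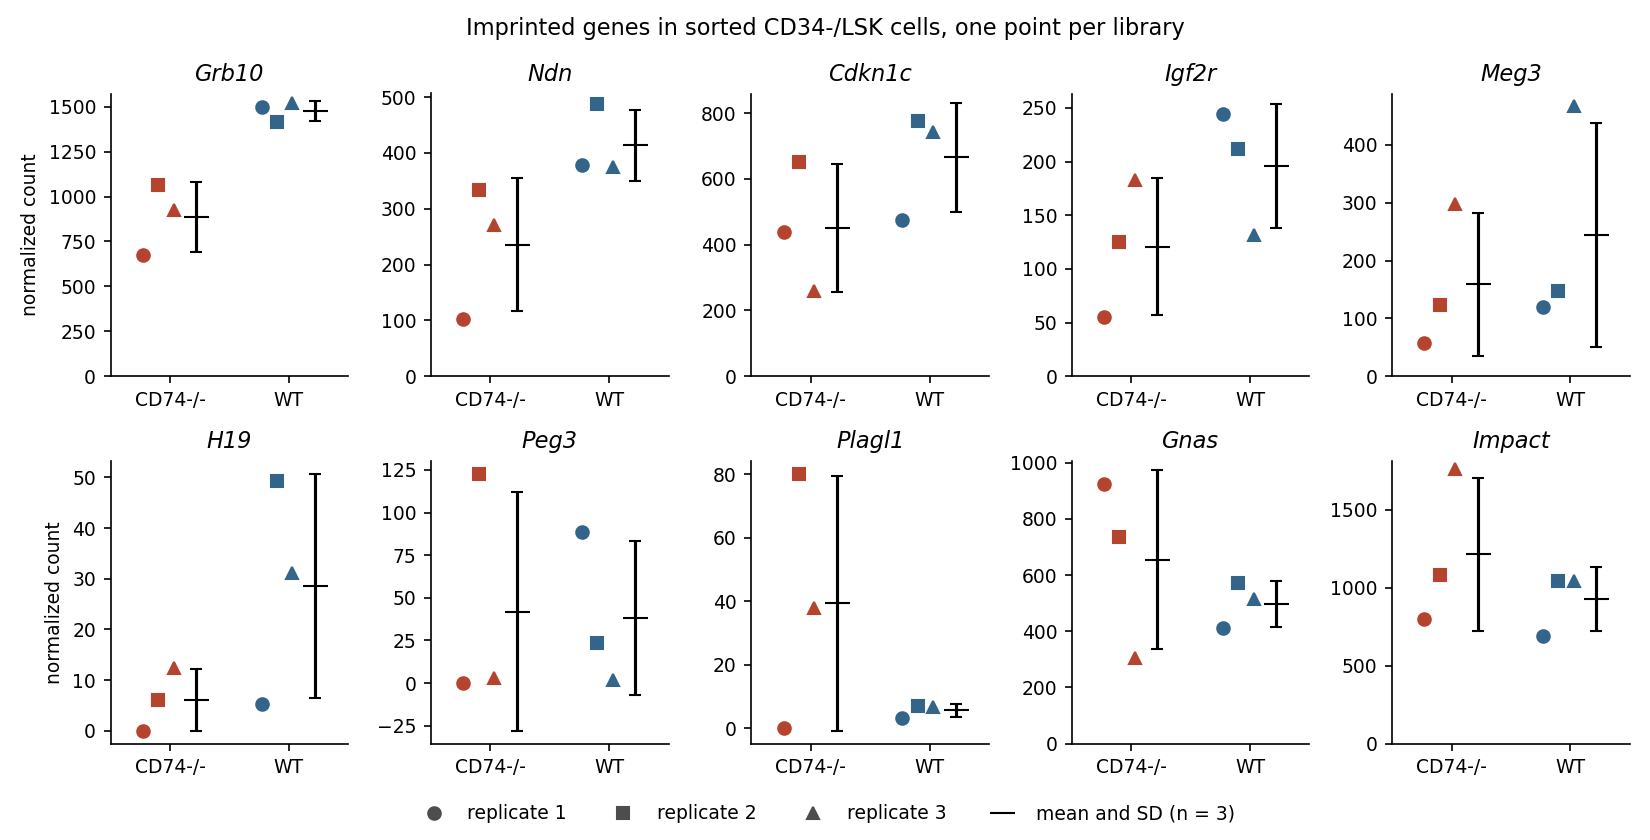
Normalized counts (vertical axes, a scale for each gene) of the 10 imprinted genes in CD74-/- (red) and WT (blue) libraries, 1 point per library with a shape for each replicate number, and the mean with SD (n = 3) beside them. Grb10 and Ndn are the panels without overlap, with all CD74-/- libraries at or under 1063 and 334 normalized counts and all WT libraries at or over 1414 and 376.

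Cdkn1c (ENSMUSG00000037664, chr7:143458339-143461050, minus strand) encodes p57, an inhibitor of the kinases that drive cells into S phase, and is needed to keep mouse HSCs quiescent. It had 439, 651 and 260 normalized counts in CD74-/- libraries, against 475, 777 and 744 in WT libraries. Replicate 3 was the lowest CD74-/- library, replicate 1 the lowest WT library, and the groups overlapped. The means were 450 ± 196 and 665 ± 165 in CD74-/- and WT cells (SD, n = 3 each), with a log2 fold change of -0.63 (SE 0.383, limma adjusted p = 0.711, exact permutation p = 0.2), and without CD74-/- replicate 3 it was -0.28. Another gene, Gm44732, lies on the opposite strand over 30.7% of its exon bases, and without strand the reads of both cannot be told apart there. Its relatives and partners gave no clearer picture. Cdkn1b, which encodes p27 and acts beside p57 in HSCs, had 172, 67.9 and 361 normalized counts in CD74-/- libraries, against 452, 192 and 205 in WT libraries, with overlap (log2 fold change -0.69, adjusted p = 0.788, limma). Ccne1, a cyclin of the kinase that p57 holds back, had 52.8, 25.4 and 13.3 in CD74-/- libraries, against 91.0, 56.4 and 65.3 in WT libraries, without overlap (log2 fold change -1.37, adjusted p = 0.682, limma). Of 16 genes of cycling cells, 0 passed in either direction (1 at an unadjusted p under 0.05) and 10 had a negative log2 fold change (median -0.29). Their sum was 23047 and 21983 normalized counts in CD74-/- and WT replicate 1, and between 9943 and 12575 in the other 4 libraries, so that both libraries numbered 1 stood apart. Among them, Mki67, the gene of the Ki-67 antigen, had 1206, 259 and 196 in CD74-/- libraries, against 2440, 641 and 614 in WT libraries (log2 fold change -1.32, adjusted p = 0.687, limma). Rrm2, a subunit of the enzyme that makes deoxynucleotides, had 627, 22.3 and 45.1 in CD74-/- libraries, against 863, 280 and 320 in WT libraries. It missed the threshold over 6 libraries (log2 fold change -2.28, adjusted p = 0.645, limma) and passed it without CD74-/- replicate 1 (log2 fold change -3.70, adjusted p = 0.0494), but not without both libraries numbered 1 (log2 fold change -3.20, adjusted p = 0.378). The relation of these values to those of Cdkn1c was not tested.

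Igf2r (ENSMUSG00000023830, chr17:12682406-12769664, minus strand) encodes a receptor that takes up IGF2 for breakdown, and like Grb10 it damps growth factor signalling. Its normalized counts were 54.8, 125 and 182 in CD74-/- libraries, against 244, 211 and 132 in WT libraries. The highest CD74-/- library lay above the lowest WT library. The means were 121 ± 63.9 in CD74-/- cells and 196 ± 57.9 in WT cells (SD, n = 3 each), with a log2 fold change of -0.81 (SE 0.536, limma adjusted p = 0.729, exact permutation p = 0.2), and without CD74-/- replicate 1 it was -0.33. Airn, the paternal noncoding RNA that silences Igf2r on that allele, had 89.0, 123 and 189 in CD74-/- libraries, against 179, 163 and 290 in WT libraries, also with overlap (log2 fold change -0.67, adjusted p = 0.735, limma). Slc22a3, a transporter gene of the same cluster, ran the other way, with 450, 217 and 342 in CD74-/- libraries, against 161, 273 and 106 in WT libraries (log2 fold change 0.94, adjusted p = 0.668, limma). Of 22 genes of the IGF and insulin pathway, 18 were tested, 0 passed in either direction (0 at an unadjusted p under 0.05), and 13 had a negative log2 fold change (median -0.31). The receptors that Grb10 binds had overlapping values. Igf1r had 2059, 2683 and 5302 in CD74-/- libraries, against 3281, 3579 and 3728 in WT libraries, and Insr had 842, 764 and 1504, against 819, 848 and 1081. Further down the pathway, the kinase gene Akt1 had 604, 565 and 798 in CD74-/- libraries, against 1092, 796 and 965 in WT libraries, and the groups overlapped at their edge (log2 fold change -0.54, adjusted p = 0.668, limma). Pik3r1, the regulatory subunit of PI3 kinase, had a log2 fold change of -0.60 (adjusted p = 0.687, limma), and the ligand gene Igf1 one of -0.85 (adjusted p = 0.740), both with overlap. Igfbp7, a secreted binding protein, had 44.0, 1.01 and 4.10 in CD74-/- libraries, against 32.1, 84.2 and 36.9 in WT libraries (log2 fold change -2.62, adjusted p = 0.653, limma).

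H19 and Meg3 are long noncoding RNAs of the maternal allele, each of which carries microRNAs. H19 (ENSMUSG00000000031, chr7:142575529-142578143, minus strand) had 0, 6.08 and 12.3 normalized counts in CD74-/- libraries, against 5.35, 49.3 and 31.2 in WT libraries. In reads this was 0, 6 and 12 in CD74-/- libraries, against 5, 55 and 33 in WT libraries, and 0 reads allow up to 3 in CD74-/- replicate 1. Replicate 1 was the lowest library of each genotype, and the groups overlapped. The means were 6.13 ± 6.15 and 28.6 ± 22.1 in CD74-/- and WT cells (SD, n = 3 each), with a log2 fold change of -2.26 (SE 1.43, 95% interval -5.43 to 0.91, limma adjusted p = 0.717, exact permutation p = 0.3), and without CD74-/- replicate 1 it was -1.16. For H19 the recovered reads gave a log2 fold change of -2.23 in DESeq2 and -2.19 in edgeR. At chr7:142577064-142577147 H19 holds Mir675, whose mature microRNAs are known to restrain IGF1 receptor production, and Meg3 holds Mir770 and Mir1906-1. The mature sequences of Mir675 and Mir770 (RefSeq, GRCm38.p6) are given as examples of what the host RNAs carry. The seed, bases 2 to 8, is in capitals, and the sequences shown share no seed.
mmu-miR-675-5p: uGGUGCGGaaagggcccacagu
mmu-miR-675-3p: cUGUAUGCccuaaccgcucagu
mmu-miR-770-5p: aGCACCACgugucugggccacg
mmu-miR-770-3p: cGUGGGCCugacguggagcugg
The libraries were not made to capture microRNAs, and their levels were not measured. Meg3 (ENSMUSG00000021268, chr12:109541001-109571726, plus strand), whose locus is known to protect HSCs of the mouse fetus, had 57.7, 123 and 297 normalized counts in CD74-/- libraries, against 119, 147 and 467 in WT libraries. Replicate 3 was the highest and replicate 1 the lowest in each genotype, and the spread within a genotype exceeded the difference between them. The means were 159 ± 124 and 244 ± 194 in CD74-/- and WT cells (SD, n = 3 each), with a log2 fold change of -0.65 (SE 0.687, limma adjusted p = 0.822, exact permutation p = 0.5). Without CD74-/- replicate 1 it was -0.076, and without WT replicate 3 it was -0.041. Rian and Mirg, noncoding RNAs downstream of Meg3, were low, with 0.98, 18.3 and 6.15 normalized counts of Rian in CD74-/- libraries, against 3.21, 23.3 and 162 in WT libraries, and 9.78, 2.03 and 25.6 of Mirg, against 24.6, 6.27 and 33.1. Dlk1, the paternal coding gene of the cluster, had 46.0, 40.6 and 16.4 in CD74-/- libraries, against 16.1, 25.1 and 117 in WT libraries. None of these separated the genotypes (log2 fold changes of -1.98, -0.96 and -0.21, adjusted p = 0.748, 0.856 and 0.965, limma). H19, Meg3 and Dlk1 are also expressed by connective tissue, for which a list of 12 stroma and endothelium genes was looked at. Of these, 9 were in the table and 6 were tested, 4 of the 6 had a negative log2 fold change (median -2.27), and their sum was between 1533 and 2058 normalized counts in CD74-/- libraries, against 1116 to 2200 in WT libraries. Lepr was at 0 in 5 of 6 libraries, Pdgfra in 4 and Cdh5 in 3, while the collagen gene Col1a2 had 0, 9.13 and 57.4 in CD74-/- libraries, against 41.7, 52.0 and 115 in WT libraries. The others went both ways. Kdr, an endothelial receptor gene, had 9.78, 0 and 23.6 in CD74-/- libraries, against 95.3, 44.8 and 98.4 in WT libraries, without overlap (log2 fold change -3.56, adjusted p = 0.546, limma). Pdgfrb, a receptor gene of pericytes, was higher in all CD74-/- libraries, with 341, 343 and 466, against 255, 232 and 97.5 in WT libraries (log2 fold change 1.08, adjusted p = 0.607, limma). Pdgfrb lies close to Cd74, the gene altered in these mice. Whether its level follows stroma content or a local effect of the altered locus was not tested. Cxcl12 and Kitl overlapped and were each at 0 in at least 2 libraries, and Emcn, with 1180, 1705 and 1005 in CD74-/- libraries, against 628, 1726 and 1787 in WT libraries, made up most of the sum. The overlap of the sums thus says little about the other genes of the list. The part of stroma and endothelium in the values of H19 and Meg3 was not tested.

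Peg3 and Plagl1 are paternally expressed zinc finger genes and were the members with the lowest level per kilobase in WT cells. Peg3 (ENSMUSG00000002265, chr7:6703892-6730431, minus strand), which marks stem cells of several adult tissues in mice, had 0, 123 and 3.07 normalized counts in CD74-/- libraries, against 88.8, 23.3 and 1.89 in WT libraries. A single library of each genotype held most of its reads. The means were 41.9 ± 70.0 and 38.0 ± 45.3 in CD74-/- and WT cells (SD, n = 3 each). The log2 fold change was -1.22 in limma (SE 1.88, adjusted p = 0.886, exact permutation p = 0.8), 0.16 in edgeR and 0.14 in DESeq2 on the recovered reads, and 0.28 in limma without CD74-/- replicate 1. No direction can be given for it. Plagl1 (ENSMUSG00000019817, chr10:13060504-13131694, plus strand), a transcription factor that arrests the cell cycle and is known to regulate other imprinted genes, had 0, 80.1 and 37.9 normalized counts in CD74-/- libraries, against 3.21, 7.17 and 6.62 in WT libraries. Replicates 2 and 3 of CD74-/- were above every WT library and replicate 1 was below all of them. In reads this was 0, 79 and 37 in CD74-/- libraries, against 3, 8 and 7 in WT libraries, and the exact Poisson 95% intervals of CD74-/- replicates 2 and 3, which cover counting error only, reached from 62.6 to 98.5 and from 26.1 to 51.0 reads. The log2 fold change was 1.20 in limma (SE 1.67, adjusted p = 0.873, exact permutation p = 0.5) and 2.79 in DESeq2 (p = 0.0697, adjusted p = 0.654). In limma it was 3.13 without CD74-/- replicate 1 (adjusted p = 0.683) and -0.037 without CD74-/- replicate 2. The motif GGGGCCCC, which PLAGL1 is known to bind and which reads the same on both strands, occurred in 1 of the 12 windows of the members, that of Peg3, beside 1.08% of all promoters. The 60 bases around it (RefSeq, GRCm38.p6) are shown because both genes belong to the 10, with the motif in capitals.
Peg3, chr7:6730587-6730646, minus strand: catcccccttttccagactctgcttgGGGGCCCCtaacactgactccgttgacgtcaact
All 3 of H19, Peg3 and Plagl1 were at 0 reads in CD74-/- replicate 1. Of the 3261 genes with a mean of 10 to 50 normalized counts, 16.3%, 18.1% and 15.8% were at 0 in CD74-/- libraries, against 10.5%, 8.68% and 11.2% in WT libraries. Zeros at this level were thus more frequent in every CD74-/- library, and no more so in replicate 1 than in replicate 2. The residual SD on the log2 scale was 1.77 for H19, 2.43 for Plagl1 and 3.09 for Peg3, beside a median of 1.62 for these genes. Across the 10 members the residual SD was lowest for Grb10 and highest for Peg3.

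Gnas and Impact were abundant and had higher means in CD74-/- cells. Gnas (ENSMUSG00000027523, chr2:174284320-174346744, plus strand) encodes the stimulatory G protein alpha subunit, which turns on adenylyl cyclase and which mouse HSCs need to enter the bone marrow. It had 924, 735 and 305 normalized counts in CD74-/- libraries, against 410, 571 and 514 in WT libraries. The CD74-/- libraries lay on both sides of all WT libraries. The means were 655 ± 317 and 498 ± 81.5 in CD74-/- and WT cells (SD, n = 3 each), with a log2 fold change of 0.26 (SE 0.411, limma adjusted p = 0.887, exact permutation p = 0.7), and without CD74-/- replicate 1 the sign turned, to -0.058. Transcripts on the opposite strand, Nespas among them, cover 22.0% of its exon bases, and the count joined the imprinted and the other transcripts of the locus. Of its partners, the G protein beta subunit gene Gnb2 had 1478, 1214 and 1421 in CD74-/- libraries, against 2938, 2030 and 1778 in WT libraries, without overlap. Its log2 fold change was -0.69 (SE 0.250, adjusted p = 0.583, limma). Adcy6, an adenylyl cyclase, had 171, 59.8 and 99.4 in CD74-/- libraries, against 299, 132 and 303 in WT libraries, with overlap (log2 fold change -1.17, adjusted p = 0.650, limma).

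Impact (ENSMUSG00000024423, chr18:12955852-12992950, plus strand) encodes an inhibitor of the kinase GCN2, which slows translation when amino acids run short. Its normalized counts were 798, 1082 and 1758 in CD74-/- libraries, against 688, 1042 and 1045 in WT libraries. Only CD74-/- replicate 3 lay well above the rest, and the groups overlapped. The means were 1213 ± 493 and 925 ± 205 in CD74-/- and WT cells (SD, n = 3 each), with a log2 fold change of 0.34 (SE 0.330, limma adjusted p = 0.803, exact permutation p = 0.4), and without CD74-/- replicate 3 it was 0.033. Eif2ak4, the gene of GCN2, was also highest in that library, with 592, 405 and 1239 in CD74-/- libraries, against 622, 601 and 609 in WT libraries (log2 fold change 0.13, adjusted p = 0.950, limma). Eif2s1, which encodes the substrate of GCN2, had 5590, 5802 and 2033 in CD74-/- libraries, against 1402, 3355 and 2227 in WT libraries (log2 fold change 0.88, adjusted p = 0.668, limma), and CD74-/- replicate 3 was its lowest CD74-/- library. Over all partners of the members, 37 of the 38 genes in the table were tested, 0 passed in either direction (1 at an unadjusted p under 0.05, Gnb2), and 20 had a negative log2 fold change (median -0.037).

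The imprinted genes that lie beside the members were then set against them. Of 31 such genes listed, 20 were in the table and all 20 were tested. None of them passed the limma test in either direction (1 at an unadjusted p under 0.05, and 0 called by DESeq2), 15 of the 20 had a negative log2 fold change, and the median was -0.40. Slc22a18, a maternally expressed transporter gene beside Cdkn1c, had 8.80, 54.8 and 89.2 normalized counts in CD74-/- libraries, against 125, 176 and 174 in WT libraries. All its CD74-/- libraries were below all WT libraries, and replicate 1 was the lowest (log2 fold change -2.10, SE 0.796, adjusted p = 0.583, limma). Nap1l4, a histone chaperone gene of the same cluster, had 1045, 1152 and 902 in CD74-/- libraries, against 1529, 1162 and 1326 in WT libraries, also without overlap but by a narrow margin (log2 fold change -0.37, adjusted p = 0.721, limma). The other genes around Cdkn1c overlapped. Kcnq1ot1, the paternal noncoding RNA that silences this cluster, had 4573, 5250 and 8248 in CD74-/- libraries, against 3979, 5273 and 7593 in WT libraries (log2 fold change 0.11, adjusted p = 0.944, limma). Phlda2, Tssc4 and Cd81 had log2 fold changes of 0.018, 0.13 and 0.30, and Osbpl5 and Ascl2 had -0.37 and -1.92, with Ascl2 at 0 in CD74-/- replicate 1. Beside Ndn, the paternally expressed genes Peg12, Mkrn3 and Snrpn had log2 fold changes of -2.22, -0.46 and -0.44, and Ube3a, which is expressed from both alleles outside neurons, had -0.084. Peg12 had 0, 43.6 and 129 normalized counts in CD74-/- libraries, against 161, 35.8 and 98.4 in WT libraries, so that its fold change followed the 0 in replicate 1, and Mkrn3 turned to 0.21 in edgeR and 0.20 in DESeq2. Ddc beside Grb10 and Nespas beside Gnas had few reads and log2 fold changes of -1.82 and -0.80, and Begain beside Meg3 had -0.23. In CD74-/- replicate 1, the mean log2 level of the 20 neighbours was 5.68, the lowest of the libraries, beside 6.88 and 6.64 in the other CD74-/- libraries and 6.69, 7.17 and 7.31 in WT libraries.

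**Figure D4:**
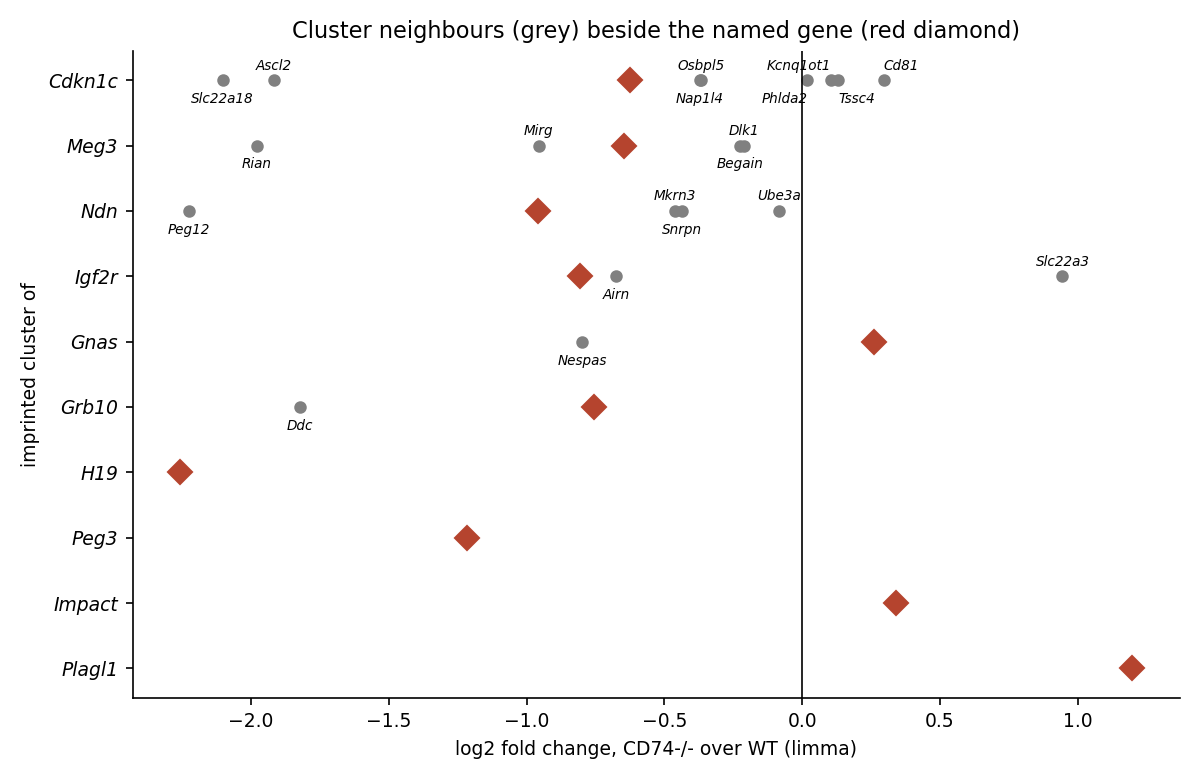
Log2 fold change of CD74-/- over WT (horizontal axis) for each of the 10 imprinted genes (red diamonds) and, on the same row, for the tested imprinted genes of its cluster (grey points). In the rows of Cdkn1c and Igf2r neighbours lay on both sides of 0, and Slc22a18 at -2.10 and Slc22a3 at 0.94 were the farthest from it in those rows.

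Of 26 further imprinted genes that had not been listed with a member, 19 were in the table and 16 were tested, 0 passed in either direction (0 at an unadjusted p under 0.05), and 10 had a negative log2 fold change (median -0.15). Among them, Atp10a, a phospholipid transporter gene next to Ube3a in the region of Ndn (chr7:58656166-58829420), had 415, 206 and 373 normalized counts in CD74-/- libraries, against 483, 516 and 625 in WT libraries, without overlap (log2 fold change -0.76, SE 0.350, adjusted p = 0.650, limma). Trappc9, a gene of vesicle transport, had 250, 296 and 355 in CD74-/- libraries, against 395, 488 and 497 in WT libraries, without overlap (log2 fold change -0.62, SE 0.312, adjusted p = 0.668, limma). Dcn, the gene of the matrix protein decorin, was at 0 in all CD74-/- libraries and had 59.9, 0 and 7.57 in WT libraries, and Sgce had 910, 819 and 611 in CD74-/- libraries, against 353, 647 and 939 in WT libraries (log2 fold change 0.36, adjusted p = 0.815, limma). Over all 36 imprinted genes tested beside the 10, 25 had a negative fold change, the median on the log2 scale was -0.22, 4 had every CD74-/- library below every WT library (beside 7.47% of all genes), and 0 had every CD74-/- library above (beside 5.35%).

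The genes that lay down and keep imprints were mostly abundant and gave no called difference. Of 17 listed, 15 were tested, 0 passed in either direction (0 at an unadjusted p under 0.05), and 11 had a negative log2 fold change (median -0.19). Dnmt3a, a DNA methyltransferase that HSCs need to differentiate, had 675, 621 and 973 normalized counts in CD74-/- libraries, against 1272, 1348 and 806 in WT libraries, with overlap (log2 fold change -0.59, adjusted p = 0.675, limma). Trim28, the partner through which ZFP57 keeps imprints methylated, had 2670, 2139 and 1743 in CD74-/- libraries, against 3238, 2608 and 2380 in WT libraries (log2 fold change -0.34, adjusted p = 0.736, limma). Ctcf, the insulator protein bound between Igf2 and H19 on the maternal allele, had 2148, 1922 and 2779 in CD74-/- libraries, against 2851, 2630 and 2547 in WT libraries (log2 fold change -0.25, adjusted p = 0.788, limma). Zfp57 itself was low, with 37.2, 5.07 and 17.4 in CD74-/- libraries, against 24.6, 23.3 and 1.89 in WT libraries, whereas Zfp445, which shares its task, had 1074, 1162 and 1673, against 1331, 1500 and 1621. Tet2, which oxidizes methylated cytosine, had a log2 fold change of -0.41 (adjusted p = 0.793, limma).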

How the data were processed

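RNA of sorted CD34-/LSK cells was sequenced in 3 CD74-/- and 3 WT libraries. The authors trimmed single-end reads with cutadapt, aligned them to GRCm38 (Ensembl release 92) with STAR (version 2.4.2a per the submitters' notes), counted them per gene with HTSeq and divided the counts by DESeq2 size factors. The deposited signal is this normalized count. All 101059 values above 0 (of 19846 genes, 257 at 0 everywhere) came out as whole reads (100.0%, within 0.006 normalized counts) once divided by the value of 1 read in each library. Columns of the authors' own comparison (fold changes and p-values) were not used. Without molecular identifiers, intervals on reads show counting error alone. The labels do not say more of the mice, so p-values measure the spread between these libraries.

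The study tested raw counts with DESeq2. Since normalized counts are not counts, the main test was limma (3.58.1, R 4.3.3) with a trend, on log2 values of the normalized counts with a pseudocount of 1, for 14892 genes averaging at least 10, adjusted by Benjamini-Hochberg over all of them, with an adjusted p under 0.05 as the threshold. edgeR 4.0.16 (quasi-likelihood) and DESeq2 1.42.0 (the study's settings, no filter) on recovered reads were alternatives, beside pseudocounts of 0.5 and 5, no filter, a mean of at least 50, TMM scaling, the replicate block and each library left out. Leaving out both libraries numbered 1 was added after seeing the data. Methods were tested on simulated data. Other steps ran in Python 3.11.15 (pandas 2.3.3, numpy 2.4.6, matplotlib 3.10.9, scipy 1.17.1). Exon lengths, overlaps and coordinates came from GENCODE vM21 (GRCm38), found for 19813 genes, and not from the Ensembl release on which the reads had been counted.

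The members and lists were chosen with earlier results of these data known, so lists are given by counts and medians, with no set test. Genes named are the members, called genes of a list, every measured gene in a cluster of a member, and up to 4 genes of lowest p of each other list. Cdkn1b, Igf1r, Insr, Eif2ak4, Zfp57, Zfp445, and the marker genes Procr, Cd34, Flt3, Cd48 and those of stroma and endothelium fall outside this rule, chosen once their values were known. Listed genes that were not in the table, Igf2 and Magel2 among them, are not analysed here.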

Additional observations from a re-analysis of the deposited data

How the results depend on the processing

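None of the 10 members was called under any alternative run, and 7 had a negative log2 fold change (8 without CD74-/- replicate 2, 6 in edgeR and DESeq2, and 5 of the 7 tested at a mean of at least 50, which drops H19, Peg3 and Plagl1). Over all genes, 6 were higher and 7 lower in CD74-/- cells. DESeq2 called 49 higher and 99 lower. With the replicate block 6 were higher and 21 lower, and 2 members (Grb10 and Ndn) were at an unadjusted p under 0.05 (adjusted p = 0.518 and 0.574, limma), beside 1 with all libraries and no block and 3 without CD74-/- replicate 2 or 3. The share of all genes at that cutoff was counted only with all libraries and no block. The replicate numbers were not taken as pairs, since same-numbered libraries deviated together with r of 0.116, 0.072 and 0.019, although each CD74-/- library correlated best with the WT library of its number. With 1 library left out, between 5 and 23 genes were higher (23 without CD74-/- replicate 3) and between 1 and 34 lower (34 without CD74-/- replicate 1, and 1, 2 and 4 without WT replicates 1, 2 and 3). Some uncalled fold changes turned sign, and the cause was not tested. Peg3 (-1.22) was 0.16 in edgeR and 0.14 in DESeq2, and Mkrn3 (-0.46) 0.21 and 0.20. With 1 library left out, or both libraries numbered 1 (each the highest of its genotype in neutrophil counts), log2 fold changes ranged between -3.19 and 1.42 for Peg3, -0.19 and 0.74 for Gnas, -0.037 and 3.13 for Plagl1, -0.31 and 0.34 for Phlda2, -0.15 and 0.35 for Kcnq1ot1, -0.44 and 0.66 for Tssc4, -3.48 and 0.13 for Ascl2, -0.66 and 0.042 for Osbpl5, -1.05 and 0.62 for Dlk1, -1.53 and 0.43 for Begain, -1.29 and 0.81 for Mkrn3, -3.65 and 0.33 for Peg12, -1.61 and 0.24 for Snrpn, -0.25 and 0.13 for Ube3a, and -0.14 and 0.69 for Sgce. Without both libraries numbered 1, Grb10 was -0.56 and Ndn -0.51 (adjusted p = 0.999 each, limma), and Igf2r was -0.14, beside -0.81 with all libraries.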
